A study of Mus musculus with 2 samples.

Results

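The 49 genes described here encode proteins that sense foreign or misplaced nucleic acid inside the cell and proteins that block virus entry, copying or release. They were chosen by gene name from the 55414 genes of the deposited expression table, and all 49 names were found in it. The choice was made with earlier results of these data known. The cells were NHOS, a mouse osteosarcoma line. The IL10RB transfectant carried a construct for IL10RB, a receptor chain shared by interleukin-10 and several of its relatives, and the mock control was the same line after mock transfection. Both were grown with the antibiotic G418. The labels do not say whether either was a clone or a pool, nor which species or promoter the construct used. Each group had 1 RNA-seq library, so there is no test, p-value or SD, and each difference below is between 2 libraries with no replicate check.

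Cells recognise viral RNA through the helicases RIG-I (Ddx58) and MDA5 (Ifih1), which signal through the mitochondrial adaptor MAVS, and DNA through cGAS, whose cyclic dinucleotide product activates STING. These routes lead to type I interferon, whose receptor activates a transcription factor complex that holds STAT2 and IRF9. The complex binds the interferon-stimulated response element in the promoters of its target genes. Most of the genes described here are known targets of that complex, so sensors and effectors are linked in 1 circuit. An osteosarcoma line is not an immune cell, but nearly every cell type carries parts of this circuit.

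The estimated counts summed to 23898132 in the transfectant library and 18766072 in the mock library. Levels are given as CPM, which are counts scaled to the size of each library, and ratios of CPM carry exact 95% intervals that cover counting error only. The Il10rb gene was at 67.5 CPM in the transfectant and 26.2 CPM in mock, a ratio of 2.57 (2.32 to 2.85) (the construct's species is not stated, so this level of the mouse gene checks the label only in part). In bulk RNA, a change in the share of cells that carry a transcript cannot be told apart from a change in its amount per cell. All 8 osteoblast lineage markers checked were past 50 counts, among them the bone transcription factors Runx2, at 136 CPM in the transfectant and 103 CPM in mock, and Sp7, at 166 and 182 CPM. For 3 bone matrix genes of that list the transfectant level was past 2-fold above mock. Their ratios were 8.86 (7.89 to 9.98) for Ibsp, 5.64 (4.54 to 7.08) for Bglap and 4.05 (3.40 to 4.84) for Spp1. The other 5 were within 2-fold, including the matrix genes Col1a1 at 1.32 (1.30 to 1.34) and Sparc at 1.94 (1.93 to 1.95). Alpl, at 0.707 (0.697 to 0.717), and Sp7 had lower levels in the transfectant. The list summed to 16093 CPM in the transfectant and 10010 CPM in mock, of which Sparc alone gave 12792 and 6592 CPM. The part of this difference in the members' ratios was not tested.

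Of the 49 genes, 42 had at least 50 counts in 1 library, the level set for a call. In the transfectant library 29 of these were at least 2-fold higher, 2 were at least 2-fold lower and 11 lay within 2-fold. Over all 11952 genes past 50 counts, 19.7% were higher and 11.9% were lower by the same rule, and the members' counts are to be read against these shares. The median log2 fold (of CPM plus 0.5) was 1.49 for the 42 members and 0.07 for all genes past 50 counts. Both the counts and the median include members that passed 50 counts only through the transfectant. The higher ones among these were Dhx58, Zbp1, Oas1b, Oas1g, Oas3, Ifit3b, Usp18, Uba7, Parp14, Mx2, Ifi27l2a and Epsti1. Epsti1 had 85 counts in the transfectant and 0 in mock, and Ifit3b had 268 and 4. For such members a higher call was largely set by that minimum. With the stricter rule that the whole counting interval lie past 2-fold, 25 members were higher and 1 was lower, against 15.9% and 9.14% of all genes. The 25 still include the members that passed only through the transfectant and were called higher. The 4 members higher by the point value alone were Ddx58, Ifi203, Eif2ak2 and Isg15. With upper quartile scaling these same genes were within 2-fold.

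**Figure D1:**
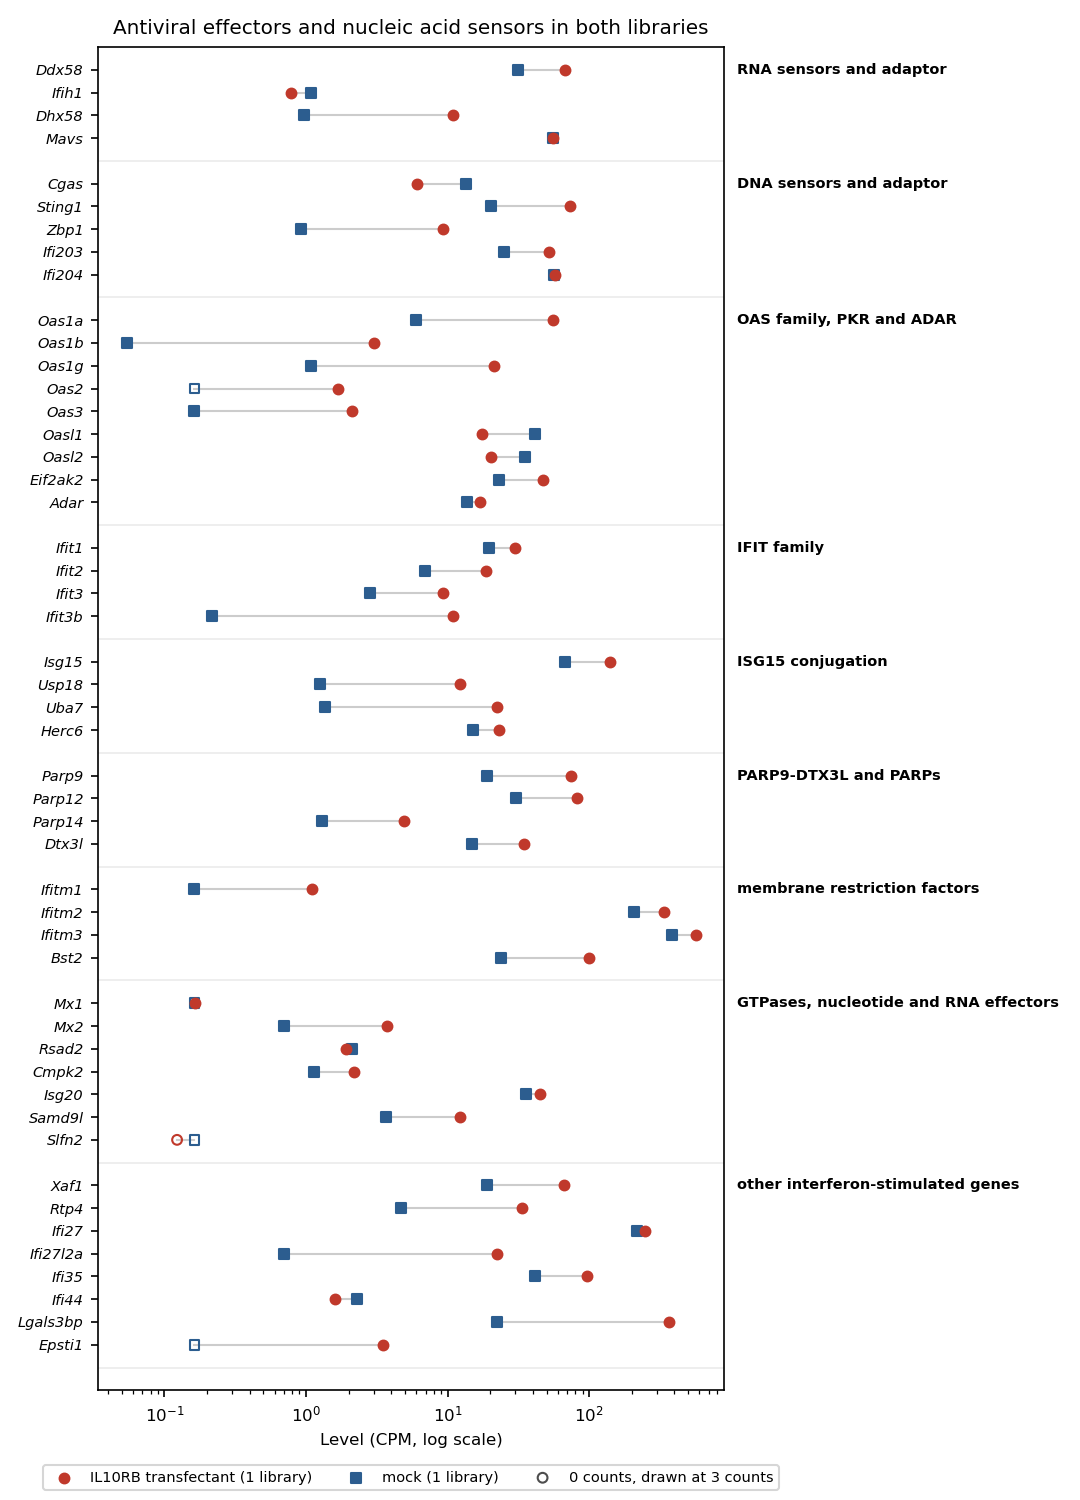
Level of each gene in the IL10RB transfectant library (circles) and the mock library (squares), in CPM on a log axis, by role. Open symbols mark 0 counts and are drawn at 3 counts (for Mx1 the mock square lies under the circle), and the widest gaps are at genes such as Oas1b, Ifit3b and Ifi27l2a that had few counts in mock.

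The promoters of 6 members that were higher and of both that were lower are shown first, because the response element is the sequence that links many of these genes. The RefSeq promoter table gave a window for 35 of the 49 genes, matched by symbol. The core of the interferon-stimulated response element, GAAA followed by any 2 bases and GAAA again, was searched on both strands over 300 bases, from 250 before to 50 after the transcript start. Each sequence below is the 200 bases before the start on the gene's strand, 5′ to 3′, from RefSeq build GRCm38.p6. Capitals mark the core on either strand, and overlapping copies run together.
Isg15, chr4:156200819-156201018, minus strand: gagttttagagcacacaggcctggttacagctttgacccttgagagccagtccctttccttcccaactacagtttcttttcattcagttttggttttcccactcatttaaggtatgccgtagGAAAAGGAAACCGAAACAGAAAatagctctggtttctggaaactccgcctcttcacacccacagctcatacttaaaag
Bst2, chr8:71537473-71537672, minus strand: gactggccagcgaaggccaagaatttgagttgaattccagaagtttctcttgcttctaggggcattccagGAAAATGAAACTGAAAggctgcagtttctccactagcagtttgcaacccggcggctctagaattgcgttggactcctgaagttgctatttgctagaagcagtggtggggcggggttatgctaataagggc
Oas1a, chr5:120907526-120907725, minus strand: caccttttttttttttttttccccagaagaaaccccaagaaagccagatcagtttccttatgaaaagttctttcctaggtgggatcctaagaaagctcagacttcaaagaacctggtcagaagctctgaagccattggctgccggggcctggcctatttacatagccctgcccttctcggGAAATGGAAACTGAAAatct
Ifit3, chr19:34583329-34583528, plus strand: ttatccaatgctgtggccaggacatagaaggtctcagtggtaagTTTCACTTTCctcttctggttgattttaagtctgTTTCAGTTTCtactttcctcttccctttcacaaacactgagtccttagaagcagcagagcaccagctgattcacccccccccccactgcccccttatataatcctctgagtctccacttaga
Ifit3b, chr19:34607757-34607956, plus strand: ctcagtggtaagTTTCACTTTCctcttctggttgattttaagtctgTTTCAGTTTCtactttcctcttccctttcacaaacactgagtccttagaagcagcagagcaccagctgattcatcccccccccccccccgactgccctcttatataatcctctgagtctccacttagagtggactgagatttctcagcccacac
Lgals3bp, chr11:118401960-118402159, minus strand: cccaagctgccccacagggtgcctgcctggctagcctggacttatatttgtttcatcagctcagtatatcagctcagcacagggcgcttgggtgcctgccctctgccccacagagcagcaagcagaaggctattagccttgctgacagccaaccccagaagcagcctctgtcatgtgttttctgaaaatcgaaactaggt
Oasl1, chr5:114923040-114923239, plus strand: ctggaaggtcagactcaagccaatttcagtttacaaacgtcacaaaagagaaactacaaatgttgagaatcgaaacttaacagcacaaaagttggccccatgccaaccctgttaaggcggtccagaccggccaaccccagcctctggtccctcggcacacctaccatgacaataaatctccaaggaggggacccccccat
Cgas, chr9:78443238-78443437, minus strand: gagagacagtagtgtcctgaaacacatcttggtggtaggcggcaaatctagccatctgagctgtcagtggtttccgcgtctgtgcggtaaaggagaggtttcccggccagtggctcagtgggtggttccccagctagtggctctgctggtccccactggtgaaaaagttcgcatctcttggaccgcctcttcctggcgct

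The core was found in 15 of the 35 members with a window (42.9%), and in 3.99% of all 27025 genes of the promoter table. By call, it was in 10 of the 19 higher members with a window, in 3 of 9 within 2-fold, in 0 of 2 lower members and in 2 of 5 under 50 counts. Isg15 had 3 overlapping copies between bases -78 and -57 from the start, and Bst2, Oas1a and Oas1g had 2 overlapping copies each. Lgals3bp, which was among the members that differed most, had no match in this window, and neither did Oasl1 and Cgas. A match is a description of letters and not a shown site, and no match says only that these letters are not in these bases. The gamma-activated site TTCNNNGAA, which reads the same on both strands, was in 8 of the 35 members (22.9%) and in 9.55% of all genes. In Bst2 and Ifitm3 it shared bases with the response element core. The windows of the paralogs Ifit3 and Ifit3b were identical at 258 of 260 aligned bases, offset by 32 bases, which is why the same cores stand at other distances from the start in the sequences above.

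**Figure D2:**
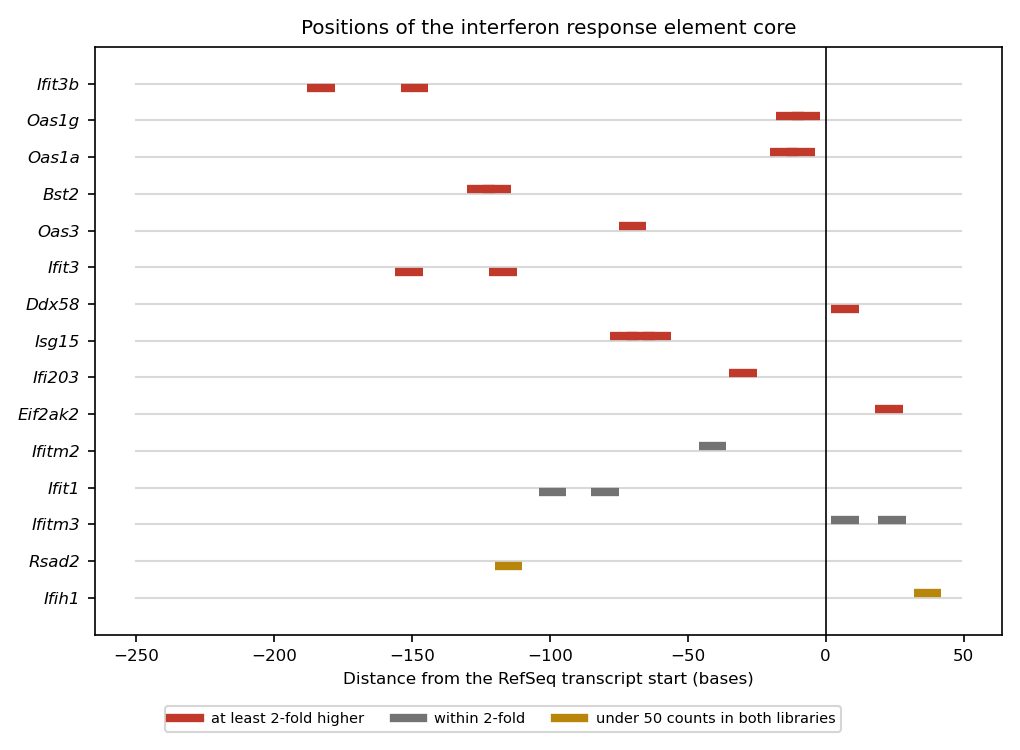
Positions of the response element core in the 300-base RefSeq windows of the 15 members that hold it, as distance in bases from the transcript start at 0, with bars above the line on the gene's strand and below it on the other. Bars are coloured by call, and cores stand near the start in members of every call shown, such as Isg15 (higher), Ifitm2 (within 2-fold) and Rsad2 (under 50 counts).

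The RNA sensors differed from each other in level and in the size of their ratios. Dhx58, which encodes LGP2, a helicase that modulates the other RNA sensors, was at 11.0 CPM in the transfectant and 0.976 CPM in mock. Its ratio was 11.3 (6.99 to 19.3), from 267 counts against 18. Ddx58, encoding RIG-I, was at 67.6 CPM in the transfectant and 31.4 CPM in mock, a ratio of 2.15 (1.96 to 2.37). MDA5 transcripts were scarce in both libraries, with Ifih1 at 19 counts in the transfectant and 20 in mock, so a difference was not detectable at this depth. Mavs, the adaptor on which RIG-I and MDA5 converge, was at 55.9 and 55.2 CPM, a ratio of 1.01 (0.933 to 1.10). The sensors upstream of MAVS thus held both a higher and a scarce member, while the adaptor's level was nearly equal.

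On the DNA sensing side, the sensor and the adaptor stood in opposite directions. Sting1, which encodes the adaptor STING on the endoplasmic reticulum, was at 73.6 CPM in the transfectant and 20.3 CPM in mock, a ratio of 3.62 (3.24 to 4.06). Cgas, the DNA sensor whose product activates STING, was at 6.09 CPM in the transfectant and 13.6 CPM in mock. This made Cgas 2.23-fold lower (1.82 to 2.76), 1 of only 2 members past 2-fold in that direction. In the deposited TPM, at 2.38 in the transfectant and 4.85 in mock, Cgas was 2.04-fold lower. Its log2 fold was -1.10 from CPM and -0.89 from TPM, each with 0.5 added, so the call is lost with TPM plus 0.5. Zbp1, a sensor of Z-form nucleic acid that can trigger necroptosis, was at 9.26 CPM in the transfectant and 0.922 CPM in mock, a ratio of 10.0 (6.13 to 17.5). The HIN-200 family members Ifi203 and Ifi204 had ratios of 2.06 (1.85 to 2.30) and 1.03 (0.950 to 1.12). Of the 50-base words in their transcripts, 10.7% for Ifi203 and 30.2% for Ifi204 also occur in transcripts of other genes, so reads could be split among relatives.

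The 2′-5′ oligoadenylate synthetases make short oligoadenylate signals when they bind double-stranded RNA. Each of the 5 members of their cluster had more counts in the transfectant, while both OASL relatives had fewer. Of the 4 past 50 counts, Oas1b, Oas1g and Oas3 passed only through the transfectant library, so a higher call was largely set by that minimum. Oas1a was at 55.7 CPM in the transfectant and 6.02 CPM in mock, a ratio of 9.26 (7.63 to 11.3). Its neighbour Oas1g was at 21.2 CPM in the transfectant and 1.08 CPM in mock, a ratio of 19.6 (12.5 to 32.3). Much of the sequence of this pair is shared with other transcripts, at 57.6% of the 50-base words of Oas1a and 54.7% of those of Oas1g, so the split between them is uncertain. Oas3 had 51 counts in the transfectant and 3 in mock, a ratio of 12.9 (4.17 to 64.6). Oas1b, listed in the table as a polymorphic pseudogene because common laboratory strains carry a truncated form, had 73 counts in the transfectant and 1 in mock, for a ratio of 55.4 with a wide interval (9.64 to 2218). Oas2 was under 50 counts, with 41 in the transfectant and 0 in mock, a ratio of at least 10.4 with 3 counts taken as the mock value.

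Oasl1, which carries ubiquitin-like domains and in mice restrains translation of Irf7, was at 17.4 CPM in the transfectant and 41.3 CPM in mock, 2.37-fold lower (2.10 to 2.67). Oasl2, a mouse relative with synthetase activity, was at 20.4 CPM in the transfectant and 35.1 CPM in mock, 1.72-fold lower (1.53 to 1.94) and within 2-fold. The OASL pair lies on chromosome 5 between 115034997 and 115075974 and the OAS cluster on the same chromosome between 120868398 and 121045584, as the deposited table gives them, in a genome build that its text and the labels used here do not name.

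Of the double-stranded RNA-binding enzymes, Eif2ak2, which encodes the kinase PKR that halts translation, was at 47.2 CPM in the transfectant and 22.9 CPM in mock. Its ratio was 2.06 (1.84 to 2.31) in CPM and 3.11 in the deposited TPM, and it was within 2-fold with a pseudocount of 2. Adar, the adenosine deaminase that edits double-stranded RNA and limits its recognition as foreign, was at 17.0 and 13.8 CPM, a ratio of 1.23 (1.05 to 1.45).

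The IFIT proteins bind viral RNA and block its translation. Their 4 genes lie on chromosome 19 between 34528094 and 34627409 in the table. Of these, 3 were at least 2-fold higher, beside 19.7% of all genes. Ifit3b, at 4 counts in mock, passed 50 counts only through the transfectant, so its higher call was largely set by that minimum. Ifit2 was at 18.8 CPM in the transfectant and 6.88 CPM in mock, a ratio of 2.72 (2.23 to 3.34). Ifit1, the cap-binding member, was at 29.8 and 19.5 CPM, within 2-fold at a ratio of 1.53 (1.35 to 1.74). Ifit3 had estimated counts of 226 in the transfectant and 52 in mock, a ratio of 3.30 (2.43 to 4.55), and Ifit3b had 268 and 4, a ratio of 50.8 (19.6 to 188). Other transcripts hold 51.2% of the 50-base words of Ifit3 and 45.0% of those of Ifit3b, and both genes had fractional counts before rounding, so the split of reads between them is uncertain.

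Conjugation of the ubiquitin-like protein ISG15 to target proteins needs an activating enzyme and a ligase, and it is undone by a protease. Isg15 itself was at 141 CPM in the transfectant and 67.7 CPM in mock, a ratio of 2.08 (1.95 to 2.22). The activating enzyme and the protease had larger ratios than Isg15, and the ligase a smaller one. The genes of that enzyme and protease, Uba7 and Usp18, had 25 and 23 counts in mock. Both passed 50 counts only through the transfectant, so a higher call was largely set by that minimum. Uba7, the activating enzyme, was at 22.5 CPM in the transfectant and 1.36 CPM in mock, a ratio of 16.6 (11.1 to 25.8). Usp18, the protease that removes ISG15 and also damps the type I interferon receptor, was at 12.2 CPM in the transfectant and 1.25 CPM in mock, a ratio of 9.77 (6.39 to 15.6). Herc6, the main ISG15 ligase in mice, was within 2-fold, at 23.2 and 15.1 CPM and a ratio of 1.54 (1.33 to 1.79), with 23.8% of its 50-base words in other transcripts.

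All 4 members of the ADP-ribosylation group were at least 2-fold higher, beside 19.7% of all genes. Of these, Parp14 passed the count minimum only through the transfectant, so its higher call was largely set by that minimum. A higher call for every gene does not extend to the wider family. Of 9 other Parp genes, looked up after the members' values were seen, 2 were higher, 1 was lower and 6 were within 2-fold. Parp9 and the ubiquitin ligase Dtx3l, whose proteins act as a pair, lie on chromosome 16 and overlap by 682 bases on opposite strands in the table. Parp9 was at 74.0 CPM in the transfectant and 18.9 CPM in mock, a ratio of 3.92 (3.49 to 4.41). Dtx3l was at 34.8 CPM in the transfectant and 14.9 CPM in mock, a ratio of 2.33 (2.04 to 2.68). Strand was not stated and both genes had fractional counts before rounding, so the split of reads in the overlap between them is uncertain. Parp12, which inhibits translation and virus growth, had a ratio of 2.70 (2.46 to 2.97) and Parp14 had 3.76 (2.41 to 6.10), from 119 counts in the transfectant and 24 in mock. With 0.5 added to the deposited TPM, the log2 fold of Parp14 was 0.88, which is within 2-fold.

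Among membrane proteins that stop virus entry or release, the abundant ones differed least. Ifitm3, which blocks fusion of incoming virus in endosomes, was at 566 CPM in the transfectant and 386 CPM in mock, a ratio of 1.46 (1.42 to 1.51). Ifitm2 was at 340 and 206 CPM, a ratio of 1.65 (1.59 to 1.72), and 48.5% of its 50-base words occur in other transcripts. Ifitm1 had 27 counts in the transfectant and 3 in mock, a ratio of 6.83 (2.10 to 35.2), and could not be called under 50 counts. Bst2, which encodes tetherin, a protein that holds budding virus at the cell surface, was at 99.6 CPM in the transfectant and 23.9 CPM in mock, a ratio of 4.18 (3.77 to 4.63). The 3 Ifitm genes stand side by side on chromosome 7, and the 2 of them past 50 counts were within 2-fold.

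The GTPase, nucleotide and RNA effectors were the group with most members at few counts. Mx1 had 4 counts in the transfectant and 0 in mock. Mx2 had 91 and 13, a ratio of 5.31 (2.96 to 10.4), and both are listed as polymorphic pseudogenes, since most laboratory strains carry defective Mx genes. Rsad2, which encodes viperin, a radical SAM enzyme that makes a chain-terminating nucleotide, had 47 counts in the transfectant and 39 in mock, a ratio of 0.915 (0.585 to 1.44). Its neighbour Cmpk2, a mitochondrial nucleotide kinase, had 53 and 21 counts and was within 2-fold at 1.92 (1.14 to 3.34). Samd9l, which restricts translation, was at 12.3 CPM in the transfectant and 3.69 CPM in mock, a ratio of 3.34 (2.56 to 4.41). The exonuclease Isg20 was within 2-fold, at 44.6 and 35.9 CPM. Slfn2, which acts in T cells and macrophages, had 0 counts in both libraries, which allows up to 0.123 CPM in the transfectant and 0.163 CPM in mock.

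The remaining interferon-stimulated genes held Lgals3bp, whose large ratio had a narrow counting interval. They also held Ifi27l2a and Epsti1, at 13 and 0 counts in mock. These 2 passed 50 counts only through the transfectant, so a higher call was largely set by that minimum. Lgals3bp, a secreted glycoprotein that binds galectins, was at 366 CPM in the transfectant and 22.4 CPM in mock, a ratio of 16.3 (14.8 to 18.0) from 8892 and 414 counts. Ifi27l2a, a small mitochondrial protein gene, was at 22.4 CPM in the transfectant and 0.705 CPM in mock, a ratio of 31.8 (18.4 to 60.1). Its neighbour Ifi27 was already high in mock and differed little, at 249 CPM in the transfectant and 218 CPM in mock, a ratio of 1.14 (1.10 to 1.19). Rtp4, a transporter chaperone, had a ratio of 7.17 (5.74 to 9.07). It overlaps Masp1 by 525 bases on the other strand and the noncoding Gm45338 on its own strand, both past 50 counts. Xaf1, a promoter of apoptosis, had a ratio of 3.49 (3.11 to 3.93), and Ifi35 had 2.32 (2.14 to 2.52). Epsti1 had 85 counts in the transfectant and 0 in mock, a ratio of at least 21.5. Ifi44 had 39 counts in the transfectant and 42 in mock, and it was under 50 counts in both.

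**Figure D3:**
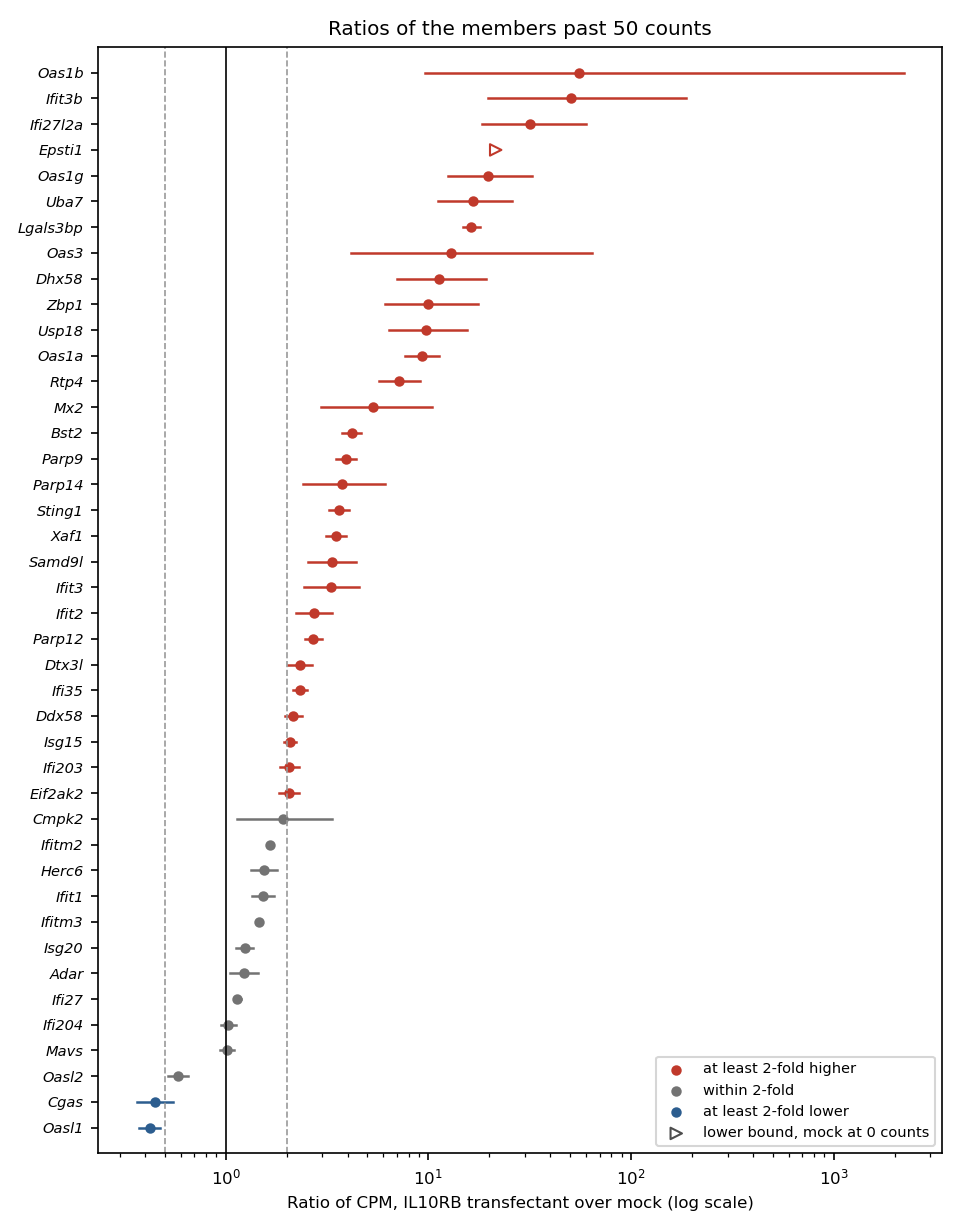
Ratio of CPM, IL10RB transfectant over mock, on a log axis for the 42 members past 50 counts in 1 library, with exact 95% counting intervals as lines and dashed lines at 2-fold either way. The open triangle is the lower bound for Epsti1, at 0 counts in mock, and Oasl1 and Cgas are the members past 2-fold lower.

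Levels can be compared between genes in the deposited TPM, which is scaled for gene length. The 4 most abundant members were the same in both libraries, in the order Ifitm3, Ifitm2, Ifi27 and Isg15. Ifitm3 was at 1568 TPM in the transfectant and 1095 TPM in mock, and Isg15 at 372 and 185 TPM. Below them the order differed. Lgals3bp was at place 5 in the transfectant and place 14 in mock, and Ifi27l2a at place 7 and place 24. Oasl1 stood at place 26 in the transfectant and place 11 in mock, at 10.0 and 25.4 TPM. The TPM of all 49 members summed to 4838 in the transfectant and 2786 in mock, of which the 3 highest gave 62.8% and 77.3%. For Ifi44 the TPM values, at 0.941 in the transfectant and 3.33 in mock, differed by more than its counts did. With 0.5 added to TPM, the log2 folds of Ddx58 (0.96), Oas3 (0.94) and Parp14 (0.88) were within 2-fold.

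The calls were also read by level in mock. Of the 11 members past 50 counts that were under 1 TPM in mock, 10 were higher, and their median log2 fold was 2.86. This band says little, since a gene so low in mock passes 50 counts mostly through the transfectant, and 77.2% of all 798 genes in it were higher. From 1 to 10 TPM in mock, 10 of 13 members were higher and 1 lower, against 26.7% and 9.94% of all genes in that band. The same limit touches this band, since Zbp1 (17 counts in mock) and Ifi27l2a (13 counts in mock) passed only through the transfectant. From 10 to 100 TPM, where genes pass in either library, 8 of 14 members were higher and 1 lower (median 1.06), against 11.8% and 13.6% of all 5648 genes (median -0.10). Above 100 TPM, 1 of 4 members, Isg15, was higher and 0 were lower, against 5.91% and 14.6% of all 1894 genes.

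**Figure D4:**
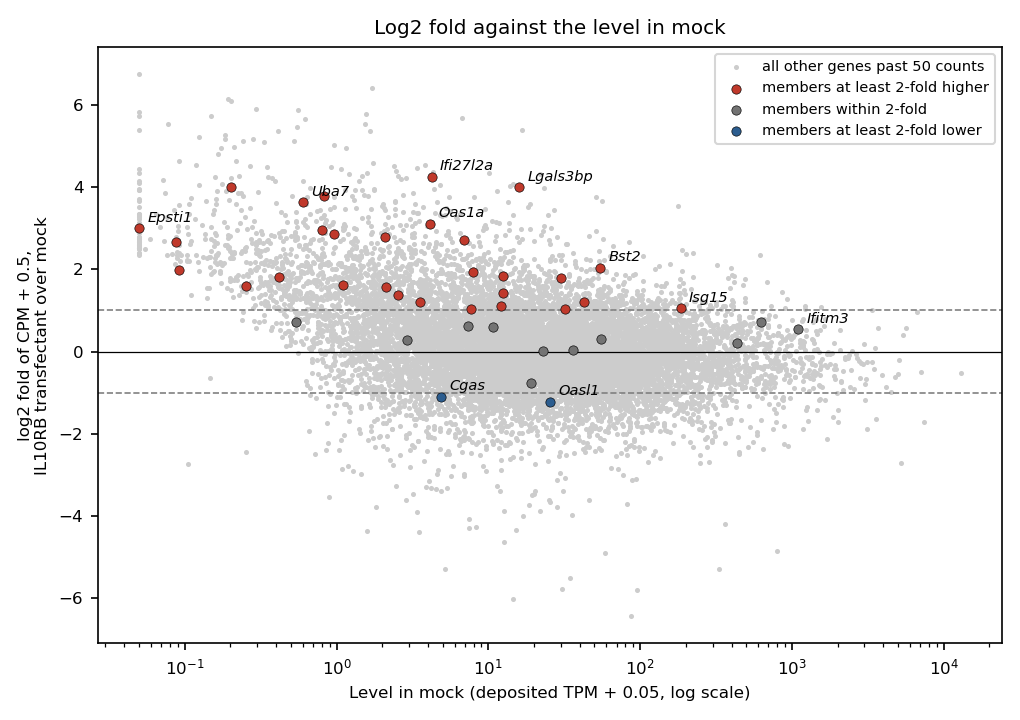
Log2 fold of CPM plus 0.5, IL10RB transfectant over mock, against the deposited TPM in mock plus 0.05 on a log axis, for members (coloured by call) and all other genes past 50 counts (grey), with dashed lines at 2-fold. Genes near the left edge pass the 50-count minimum mostly by lying high, while members between 10 and 100 TPM in mock, such as Lgals3bp and Bst2, stand in a part of the plot where genes lie on both sides of 0.

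The genes around this circuit were examined from lists of the pathway. None of the 14 interferon ligand genes, among them Ifnb1, several Ifna genes, Ifng and Ifnl2, reached 50 counts. Their counts summed to 1 in the transfectant and 4 in mock. Receptor and transducer genes were past 50 counts in 14 of 15 cases, and 6 were at least 2-fold higher and 0 lower. The type I receptor chains were nearly equal, with ratios of 0.912 (0.851 to 0.976) for Ifnar1 and 1.09 (1.01 to 1.18) for Ifnar2, while Ifnlr1, the lambda interferon receptor chain that pairs with IL10RB and is named here after its values were seen, had 0 counts in the transfectant and 4 in mock. Of genes for the complex that binds the response element, Stat2 had a ratio of 1.73 (1.52 to 1.97) and Irf9 of 1.55 (1.40 to 1.72). Irf7, the factor that amplifies interferon production, was at 30.9 CPM in the transfectant and 5.47 CPM in mock, a ratio of 5.64 (4.57 to 7.01). Irf3, Irf1 and Ifngr2 were also among the 6. So was Il10rb, the gene used above to check the label, and its call is not a result about the pathway.

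Of 20 further sensors and adaptors, 15 were past 50 counts, with 5 higher and 3 lower. The higher ones were the double-stranded RNA receptor Tlr3, at a ratio of 4.29 (2.99 to 6.34), Tlr4, Nod1, Nlrc5 and the kinase Ikbke. The lower ones were the signalling ubiquitin ligases Traf6, which was 3.55-fold lower (3.17 to 3.97), and Traf3, 2.28-fold lower (1.92 to 2.72), and the nucleic acid binding protein Lrrfip1. In the deposited TPM, Traf3 was 1.33-fold lower, which is within 2-fold. Of 27 further antiviral effectors, 25 were past 50 counts, with 18 higher and 0 lower. The higher ones included Apobec3, a cytidine deaminase active against retroviruses, at a ratio of 4.22 (3.61 to 4.95), and the DNA exonuclease Trex1 at 2.51 (2.12 to 2.98). Of 12 negative regulators, 11 were past 50 counts, with 4 higher and 0 lower. The mitochondrial regulator Nlrx1 was at 6.54 (5.10 to 8.50) and Socs1 at 2.35 (2.03 to 2.74), whereas Socs3 was within 2-fold at 0.578 (0.518 to 0.645). The phosphatase Ptpn2 stood at the threshold, at 44.8 CPM in the transfectant and 89.7 CPM in mock, a ratio of 0.499 (0.462 to 0.539) with a log2 fold of -0.99. The lower genes of all pathway lists numbered 3, and 4 with DESeq2 size factors, upper quartile factors or a pseudocount of 0.1. These counts stand beside the same 19.7% higher and 11.9% lower of all genes. The lists were chosen with earlier results of these data known, so the choice itself could raise their share of higher genes.

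Markers of other cell types that express antiviral genes were counted beside the members. Of 7 macrophage markers, 2 were higher (Lyz2, with 626 counts in the transfectant and 5 in mock, and Cd68, with 150 and 12, at a ratio of 9.49 in CPM and 4.81 in TPM) and 1, Csf1r, was lower. Their summed level was 34.4 CPM in the transfectant and 4.39 CPM in mock, while Tyrobp and Itgam had 0 counts in both and Adgre1 had 0 and 1. For the leukocyte antigen CD45, Ptprc gave 0 counts in the transfectant and 27 in mock, while Coro1a, the 1 leukocyte marker of 4 past 50 counts, was higher, with 55 and 14 counts and a ratio of 2.98 (1.64 to 5.81). The 4 leukocyte markers summed to 3.70 CPM in the transfectant and 3.09 CPM in mock. Of 4 plasmacytoid dendritic cell markers, which included the member Bst2, 1 was higher (Bst2), Tcf4 was within 2-fold, and Siglech and Ly6d had 0 counts in both; they summed to 274 CPM in the transfectant and 251 CPM in mock. All 5 fibroblast markers were at least 2-fold higher, with a summed level of 325 CPM in the transfectant and 106 CPM in mock. The 4 endothelial markers summed to 0.494 and 1.41 CPM. The marker calls stand beside 19.7% higher and 11.9% lower of all genes. Lyz2, Cd68 and Coro1a passed 50 counts only through the transfectant, so their higher calls were largely set by that minimum. Csf1r, with 24 counts in the transfectant and 57 in mock, passed only through mock. The part of the macrophage and fibroblast differences in the members' ratios was not tested.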

How the data were processed

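RNA of 1 IL10RB-transfected and 1 mock-transfected NHOS culture was made into libraries with the SMART-Seq v4 kit, per the labels' protocols. The submitters' processing notes name DRAGEN, with no version or role. The sources used here do not name the aligner, genome build or annotation. The authors' deposited table gives an estimated count and a TPM value per gene, per the file headers, with a gene length in bases; counts are not normalised and TPM is scaled for length and depth. Of the 49 members, 14 had a fractional count.

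Estimated counts were rounded and scaled with TMM factors of 1.02 (transfectant) and 0.983 (mock) from edgeR 4.0.16 in R 4.3.3. As an alternative, size factors were taken from DESeq2 1.42.0. No test was run with either, because each group had 1 library. In these units 1 count was 0.0411 CPM in the transfectant and 0.0542 CPM in mock. A gene with at least 50 counts in 1 library was called at 2-fold on log2(CPM + 0.5), which understates differences of low genes. The ratios printed have no pseudocount, and their 95% intervals are Clopper-Pearson intervals conditional on the summed counts. The reads carry no molecular identifiers in the table, so intervals cover counting error only. A value of 0 was set at 3 counts per library for bounds.

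Any member and any gene of the 5 pathway lists past 50 counts could be named; other genes named (Ifnlr1, the ligands, markers, overlapping genes and relatives) fall outside that rule and were chosen after their values were seen, apart from the marker and ligand lists. The members and lists were chosen with earlier results of these data known. Ambiguity between paralogs was described by 50-base words shared between the longest GENCODE M21 transcript of a member and transcripts of other genes. Promoter windows are in GRCm38.p6 and were not mixed with the table's coordinates. The procedure was tested on simulated data. Computation used scipy 1.17.1 and pandas 2.3.3 under Python 3.11.15, and plots used matplotlib 3.10.9. Results of some genes on the pathway lists are not reported here.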

Additional observations from a re-analysis of the deposited data

How the results depend on the processing

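Among counts and medians recomputed under other settings, 73 values were close to those reported and 17 moved. Upper quartile scaling shifted the median log2 fold of all genes by -0.12, to -0.042, and gave 25 higher and 2 lower members with a median of 1.38. The all-gene median was 0.12 with total counts, 0.0351 with a minimum of 200 counts and -0.15 without a minimum, where 2316 genes of all were lower. The count of lower members was 1 with a pseudocount of 2, with the counting interval rule and in the deposited TPM, since Cgas was then not past the threshold (its counting interval reached below 2-fold). At a fold of 1.5, 3666 genes of all were higher, 2853 lower and 6 pathway list genes lower. At a fold of 4, 13 members were higher and 0 lower, 772 genes of all higher and 221 lower, and 16 pathway list genes higher and 0 lower. Of 252 member log2 folds under other scalings, pseudocounts and the TPM, 240 stayed on their side of the threshold. The 12 that crossed it belong to 7 genes, Ddx58, Ifi203, Isg15, Eif2ak2, Oas3, Cgas and Parp14. Mavs and Ifi204, near equal, changed sign with upper quartile scaling (-0.10 and -0.07). No paired analysis was possible because a single library stood for each group. Counting depth limits Ifih1, Oas2, Ifitm1, Mx1, Rsad2, Slfn2 and Ifi44, all under 50 counts.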

Other observations

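Relatives of the members by name, outside the members and the pathway lists, were looked up after the members' values had been seen. Of 37 such genes, 15 were past 50 counts, 3 were at least 2-fold higher and 1 lower in the transfectant, beside 19.7% higher and 11.9% lower of all genes. The higher ones were Parp3, which acts in DNA break repair, at 139 CPM in the transfectant and 15.4 CPM in mock, a ratio of 9.03 from 3381 and 284 counts, Parp10 at 2.82 (2.57 to 3.09), and Oas1c, with 52 counts in the transfectant and 5 in mock, a ratio of 7.89 (3.17 to 25.3), although the deposited TPM was 1.14 in the transfectant and 0.765 in mock, within 2-fold. Parp6 was 2.23-fold lower (1.95 to 2.55), and the DNA repair gene Parp1 was within 2-fold at a ratio of 0.839 (0.795 to 0.885). The HIN-200 relatives Ifi202b, Ifi211 and Mndal were within 2-fold, at ratios of 1.40 (1.31 to 1.49), 1.21 (1.06 to 1.39) and 1.34 (1.11 to 1.63). Slfn3 was at 5.76 CPM in the transfectant and 10.3 CPM in mock.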
